A study of Trichoderma reesei QM6a with 24 samples.

Results

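The effect of constant light against constant darkness was followed in mycelium of the *Trichoderma reesei* deletion mutant QM6aΔ72004 grown on cellulose without added methionine. The comparison was chosen by the sample labels alone and takes 6 of the 24 libraries of the series, 3 from light and 3 from darkness, with all 10879 gene models of the count table. The mutant lacks the gene of locus tag TRIREDRAFT_72004, which the title of the series describes as a receptor of the G-protein coupled kind that helps the fungus respond to methionine. Both groups carried this deletion and shared cellulose in minimal medium at 28 °C without L-methionine. They were set beside 6 libraries of the undeleted strain QM6a (3 from light and 3 from darkness, without methionine) and 6 of the mutant with 5 mM L-methionine (3 from light and 3 from darkness). Growth is given as 96 h in the protocol but as 72 h on the samples. Nothing in the labels ties replicate libraries to separate cultures. The p-values rest on the spread among replicate libraries, estimated over all 24 libraries of the series, and this spread may be technical. Whether more than 1 clone of the mutant was used is not given either.

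*T. reesei* is a soil fungus that secretes cellulases, the enzymes that cut cellulose into glucose and cellobiose, and hemicellulases, which open the other wall polysaccharides. Their genes are switched on by cellulose through the activator XYR1 and are also known to depend on lighting. Light is sensed in filamentous fungi by the blue-light receptor pair of the White Collar type (BLR1 and BLR2 in *Trichoderma*), and G-proteins with cyclic AMP and protein kinase A carry further signals to the same genes.

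The 6 libraries held 16533052 to 20887411 counts, and 9308 models passed the filter on low counts. The deleted gene, TrE0303W, had no count in any mutant library, as the genotype label states, against 5.80, 6.35 and 6.08 CPM (counts scaled to a library of 1000000 with TMM factors) in QM6a in light and 29.4, 26.4 and 23.9 CPM in QM6a in darkness. A second model, TrC0447C (TRIREDRAFT_63200), likewise had no count in any mutant library and had 17.1, 16.9 and 14.9 CPM in QM6a in light and 49.6, 43.8 and 48.9 CPM in QM6a in darkness. On the first principal component of the 6 libraries, which carried 90.86% of the variance, light libraries lay at 67.9 to 75.2 and dark libraries at −72.0 to −70.8. Replicate 2 of light stood apart on the second component (3.464% of the variance), at 26.1 against −7.35 and −17.7 for the other light replicates. Light and dark libraries also carry separate runs of library numbers, so that lighting and library run cannot be told apart.

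Light changed the majority of tested transcripts in the mutant. By edgeR's quasi-likelihood test at an adjusted p of 0.05, 2962 models were higher in light (31.8% of those tested) and 2844 were lower (30.6%). Large falls outnumbered large rises. At least 2-fold changes were called for 1008 models that were higher (10.8%) and 1320 that were lower (14.2%), and at least 16-fold changes for 97 higher (1.04%) and 306 lower (3.29%). At least 4-fold changes fell between, with 381 higher (4.09%) and 740 lower (7.95%). The median log2 fold change of all tested models was 0.02. In RNA from whole mycelium, fewer hyphae that express a gene and less of its RNA in each hypha cannot be told apart.

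The cellulose degradation genes were the group with the deepest fall among the lists examined. Of the 20 listed members, all of which were tested, 19 were lower in light and 1 was higher, and 16 were at least 16-fold lower, where 3.29% of all tested models were. Their median log2 fold change was −9.43. Summed over the list, the light libraries held 1153 to 1467 CPM and the dark libraries 34028 to 40213 CPM. The 19 falls were called again without light replicate 2, the library that stood apart.

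Among the enzymes that attack the cellulose chain, cel7a, the gene of cellobiohydrolase I, had 13.2, 7.70 and 7.03 CPM in the light libraries and 14024, 15899 and 16767 CPM in the dark libraries (log2 fold change −10.70, SE 0.88, edgeR adjusted p = 1.57e-09), so that the lowest dark library lay far above the highest light library, and of all models of the count table only TrC1130C held more counts in darkness. TrG1206C (TRIREDRAFT_72567), listed for cellulose degradation, had 3.09, 1.04 and 0.421 CPM in light and 4696, 5829 and 5923 CPM in darkness (log2 fold change −11.76, SE 0.91). The endoglucanase gene cel7b had 1.16, 0.306 and 0 CPM in light against 852, 931 and 921 CPM in darkness (−10.72, SE 0.50). Light and dark values lay far apart for both genes, as they did for the endoglucanase genes that follow. The gene cel5a had 1.11, 0.306 and 0.240 CPM in light and 1525, 1979 and 1892 CPM in darkness (−11.58, SE 0.59). The gene cel12a had 0.354, 0 and 0 CPM in light and 127, 166 and 167 CPM in darkness (−10.10, SE 0.64). For lytic polysaccharide monooxygenases, copper enzymes that cut the chain by oxidation, the fall was of the same order. The gene cel61a had 0.354, 0.183 and 0 CPM in light and 2575, 2699.8 and 2650.1 CPM in darkness, a log2 fold change of −13.72 (SE 0.77, edgeR adjusted p = 4.54e-12). The gene cel61b had 1.42, 0.306 and 0.240 CPM in light against 1011, 1349.5 and 1323 CPM in darkness (−10.78, SE 0.78). Several of these light values lie near the floor of 3 counts, which is 0.152 to 0.183 CPM in the light libraries. Light replicate 1 held the highest light value of each of these 7 genes. Without it the unlogged folds of all of them but cel7a grew by over 1.5 times and the calls were kept, with log2 fold changes of −12.87 for TrG1206C, −12.47 for cel7b, −12.65 for cel5a, −14.37 for cel12a, −14.72 for cel61a and −12.10 for cel61b.

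The genes of proteins that bind cellulose or act beside the cellulases fell too. For cip1, whose product carries a cellulose-binding module, 0.759, 0.0611 and 0.180 CPM were measured in light and 1604, 1961 and 1987 CPM in darkness (−12.31, SE 0.68). For cip2, the gene of a glucuronoyl esterase, the values were 0.557, 0.122 and 0.0601 CPM in light and 142, 165 and 172 CPM in darkness (−9.20, SE 0.49). Light replicate 1 was again the highest light library, and without it the log2 fold change was −13.81 for cip1 and −10.67 for cip2. The cellulose list also held members without a symbol, which are given here whatever their role and include enzymes. Of these, TrG0019C (TRIREDRAFT_123992) averaged 5.85 ± 0.958 CPM in light and 1624 ± 217 CPM in darkness (SD, n = 3 each), TrA0809C 5.60 ± 1.24 CPM in light and 502 ± 49.6 CPM in darkness, and TrC1576W 1.74 ± 0.158 CPM in light and 154 ± 19.5 CPM in darkness. The shallower fall of TrA2104C (TRIREDRAFT_76227) went with 51.05 ± 2.61 CPM in light and 132 ± 16.1 CPM in darkness (−1.37, SE 0.10). TrF0083C, with 0.354, 0 and 0 CPM in light and 107, 119.8 and 111 CPM in darkness, had a log2 fold change of −9.66, or −13.93 without light replicate 1.

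**Figure D1:**
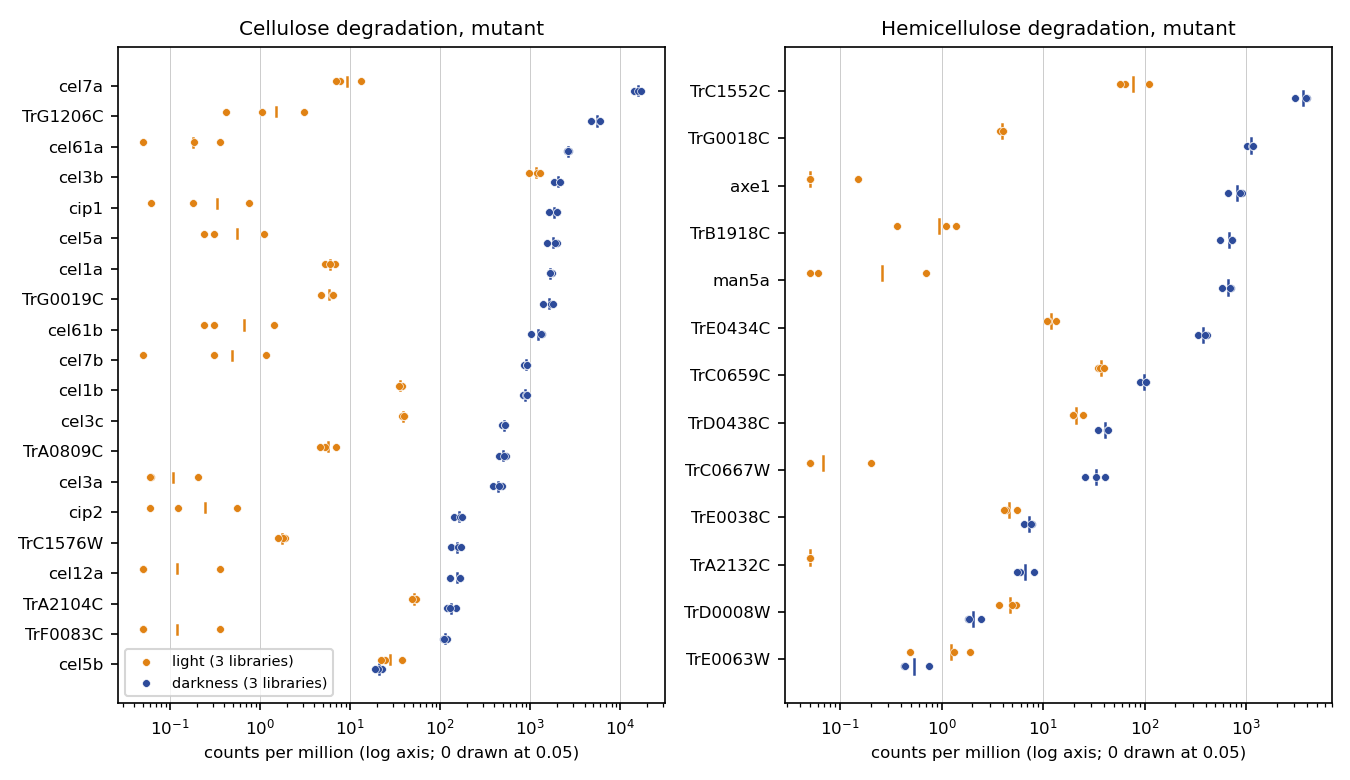
CPM of the tested members of the cellulose and hemicellulose lists in the mutant, on a log axis, with 1 point per library (orange, light; blue, darkness; 3 each) and a tick at the mean. For 19 of 20 cellulose members and 11 of 13 hemicellulose members the light points lie left of the dark points and the change was called lower, and cel3b and cel5b show the smallest gaps on the left panel.

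The beta-glucosidases whose genes have a symbol, enzymes that release glucose from cellobiose, were spread over a wide range of response. At one end cel3a had 0.202, 0.0611 and 0.0601 CPM in light and 382, 490.0 and 452 CPM in darkness (log2 fold change −11.84, SE 1.01, and −12.67 without light replicate 1). The intracellular enzymes followed, with cel1a at 5.26, 6.79 and 5.95 CPM in light and 1734, 1652 and 1637 CPM in darkness (−8.13, SE 0.38), and cel1b at 35.6, 37.5 and 34.9 CPM in light and 828, 887 and 924 CPM in darkness (−4.61, SE 0.09). Replicates of both genes were close to each other and the groups lay far apart. For cel3c, 39.5, 37.7 and 39.1 CPM in light stood against 484, 523 and 529 CPM in darkness (−3.72, SE 0.07). At the other end cel3b kept 1197, 957 and 1297 CPM in light against 1838, 2136 and 2127 CPM in darkness (−0.82, SE 0.16, edgeR adjusted p = 0.000145). Its fall was the smallest of the list, and it supplied most of the list's counts in light. Outside the beta-glucosidases, the lone rise of the cellulose list was that of cel5b, with 24.4, 37.4 and 22.0 CPM in light and 22.8, 20.3 and 18.9 CPM in darkness. Light replicate 2 set this value (0.43, SE 0.18, edgeR adjusted p = 0.044), since without it the log2 fold change was 0.17 (edgeR adjusted p = 0.405). The call was also lost without dark replicate 2 or dark replicate 3 (0.42 and 0.37), with DESeq2 size factors (edgeR adjusted p = 0.065), with only the groups compared (0.1002) and with a replicate block (0.0536).

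Genes listed for hemicellulose degradation showed the same direction with a wider spread. Of 16 listed members 14 were linked to a model and 13 were tested. In light 11 of these were lower, 8 of them at least 16-fold, and 2 were higher, with a median log2 fold change of −5.56 that stayed the same with TrA2132C, which had no count in light, at its bound. The summed level was 147 to 197 CPM in the light libraries and 6366 to 8113 CPM in the dark libraries. Axe1, the gene of an acetyl xylan esterase that strips acetyl groups from xylan, had 0.152, 0 and 0 CPM in light and 663, 907 and 876 CPM in darkness. The 3 counts in light make it 14283-fold lower, with an exact 95% counting interval of 4887 to 69260, and all 3 came from light replicate 1 (fitted log2 fold change −13.64, or −16.78 without it). The mannanase gene man5a had 0.709, 0.0611 and 0 CPM in light and 587, 717 and 696 CPM in darkness (−11.17, SE 0.57, and −14.12 without light replicate 1).

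The members without a symbol carried most of the counts of this list in darkness. TrC1552C (TRIREDRAFT_121127) had 63.5, 57.0 and 111 CPM in light and 3038, 4004 and 3884 CPM in darkness (−5.56, SE 1.06, edgeR adjusted p = 0.000124). TrG0018C (TRIREDRAFT_111849) had 4.05, 3.79 and 4.03 CPM in light and 1022, 1139 and 1177 CPM in darkness (−8.13, SE 0.91). For both, each dark library lay far above each light library, and light replicate 3 was the highest light library for TrC1552C. TrB1918C (TRIREDRAFT_123818) had 1.11, 0.367 and 1.38 CPM in light and 555, 736 and 731 CPM in darkness (−9.44, SE 1.53), and TrE0434C (TRIREDRAFT_72526) had 11.1, 13.6 and 11.1 CPM in light and 335, 413 and 395 CPM in darkness (−5.001, SE 0.89). TrC0667W was near the floor in light (0.202, 0 and 0 CPM) and had 25.8, 33.4 and 40.7 CPM in darkness (−8.65, or −12.17 without light replicate 1). TrA2132C had no count in light and 5.97, 8.23 and 5.52 CPM in darkness, at least 116-fold lower against a floor of 3 counts over the group. The smaller falls were those of TrC0659C (−1.42), TrD0438C (−0.92) and TrE0038C (−0.66). The 2 members that rose were of low level. TrD0008W had 5.42, 4.95 and 3.67 CPM in light and 2.44, 1.81 and 1.86 CPM in darkness (1.198, SE 0.17). TrE0063W had 1.92, 0.489 and 1.32 CPM in light and 0.426, 0.437 and 0.759 CPM in darkness, with overlapping groups, and its call (edgeR adjusted p = 0.0409, log2 fold change 1.23) was lost without light replicate 1 (0.75), light replicate 3, dark replicate 1 or dark replicate 2, with DESeq2 and with only the groups compared.

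Of 8 listed regulators of these enzyme genes 3 were linked and tested, and all 3 changed, in different directions. The activator gene xyr1 had 229, 225 and 229 CPM in light and 543, 674 and 639.5 CPM in darkness (−1.44, SE 0.07, edgeR adjusted p = 9.28e-13). The light libraries were nearly equal and all lay below the dark libraries. TrE0539W (TRIREDRAFT_54675) had 3.69, 5.196 and 3.79 CPM in light and 332, 361 and 398 CPM in darkness (−6.43, SE 0.19). TrC0303W (TRIREDRAFT_122284) went the other way, with 1079.5, 1009 and 1210.4 CPM in light and 292, 312 and 339 CPM in darkness (1.80, SE 0.07).

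**Figure D2:**
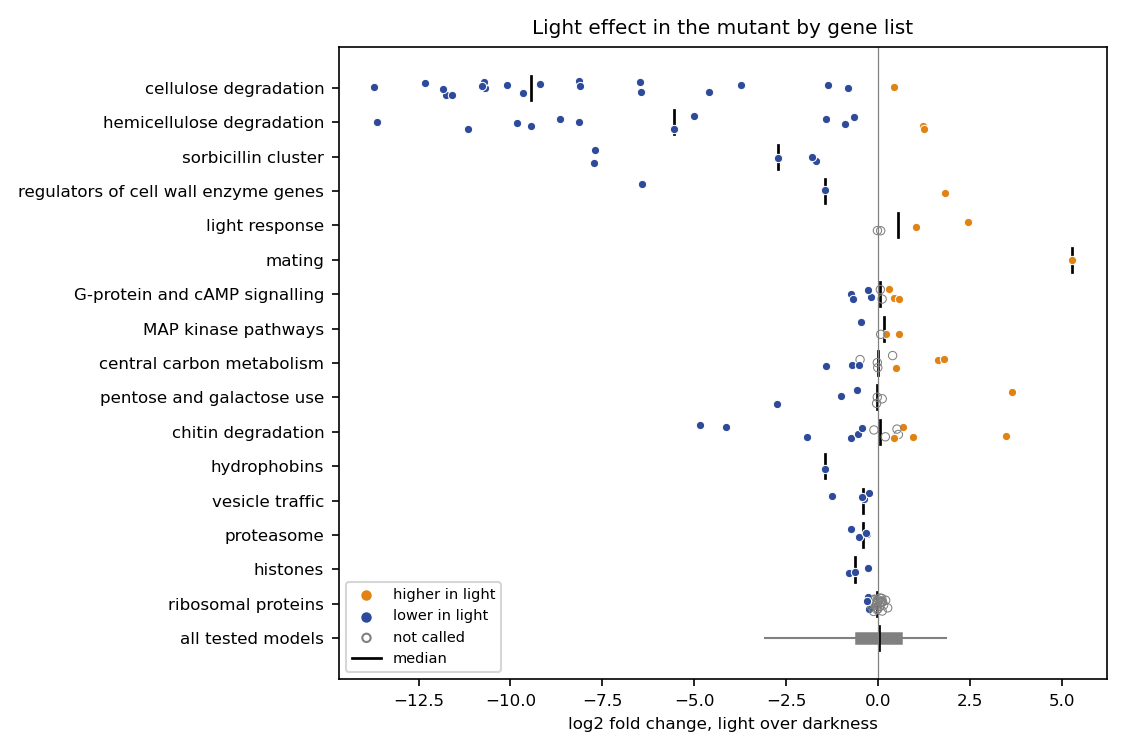
Log2 fold change in light over darkness in the mutant for each tested member of 16 gene lists (orange, called higher; blue, called lower; open, not called), with a black line at each list's median. The bottom row gives all 9308 tested models as the median, the quartiles (thick bar) and the range from the 5th to the 95th percentile (thin line), and the cellulose and hemicellulose medians of −9.43 and −5.56 lie left of that line.

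Of 5 listed light response genes 4 were linked and tested. In light 2 were higher, where 31.8% of all tested models were, and 2 were not called. The photolyase gene phr1, which repairs damage from ultraviolet light and is light-induced in *Trichoderma*, had 69.5, 56.7 and 64.3 CPM in light and 11.5, 13.1 and 10.5 CPM in darkness (2.44, SE 0.10, edgeR adjusted p = 6.51e-14). All light libraries lay well above all dark libraries. The White Collar gene blr2 had 169.5, 166 and 166 CPM in light and 83.5, 81.8 and 80.5 CPM in darkness (1.03, SE 0.05). Its partner blr1 had 229, 215 and 234 CPM in light and 209.9, 221 and 218 CPM in darkness, with overlapping groups (0.06, SE 0.05, edgeR adjusted p = 0.292). TrB0767W (TRIREDRAFT_77473) had 16.5, 19.5 and 21.6 CPM in light and 16.1, 19.4 and 23.2 CPM in darkness, and its difference did not pass the test (edgeR adjusted p = 0.859). The plan of the lists had entered this tag as phr1 too. The name phr1 is used here for TrB0593W (TRIREDRAFT_107680), which carries it as its RefSeq symbol.

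The mating-type gene mata1 rose with light, at 139, 111 and 138 CPM in light and 2.98, 3.81 and 3.31 CPM in darkness (5.26, SE 0.21, edgeR adjusted p = 1.74e-14). The model next to it, TrC1145W (TRIREDRAFT_106181), rose still further, with 110.4, 97.7 and 122 CPM in light and 0.426, 0.125 and 0.0690 CPM in darkness (8.97, SE 0.35), a value that reached 10.03 without dark replicate 1. For both models every light library was far above every dark library.

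Components of G-protein and cyclic AMP signalling changed by less than 2-fold in either direction. Of 10 listed genes 9 were linked and tested, with 3 higher, 4 lower and 2 not called in light, against 31.8% higher and 30.6% lower over all tested models, and with a median log2 fold change of 0.05. These shares are near those of all models. Among the G-protein alpha subunits, gna1 had 132, 119 and 127 CPM in light and 194, 224 and 211 CPM in darkness (−0.74, SE 0.07, edgeR adjusted p = 3.43e-08). The gene gna2 had 90.7, 88.9 and 87.1 CPM in light and 62.7, 66.3 and 68.3 CPM in darkness (0.44, SE 0.08), and gna3 had 96.2, 86.6 and 92.9 CPM in light and 71.6, 80.4 and 75.0 CPM in darkness (0.28, SE 0.08). Thus gna1 fell while gna2 and gna3 rose, none with overlapping groups. The beta subunit gene tgb1 fell slightly (185 ± 10.8 CPM in light and 227 ± 16.1 CPM in darkness, −0.30). Adenylate cyclase, acy1, which makes cyclic AMP, had 424, 444 and 424 CPM in light and 267, 316 and 292 CPM in darkness (0.56, SE 0.09). Both catalytic subunits of protein kinase A fell, pkac2 with 17.1, 20.05 and 14.1 CPM in light and 26.7, 27.5 and 28.7 CPM in darkness (−0.70, SE 0.09) and pkac1 by less (−0.20, SE 0.06). The regulatory subunit pkar1 (215 ± 4.58 CPM in light and 208 ± 12.0 CPM in darkness) did not pass the test. The regulator of G-protein signalling rgs1 (59.7 ± 3.86 CPM in light and 55.7 ± 9.59 CPM in darkness) did not pass it either (log2 fold change 0.10), but was called higher without dark replicate 1 (0.24, edgeR adjusted p = 0.0389). In the MAP kinase list 4 of 5 genes were tested. The kinase gene tmk2 was lower (−0.47, SE 0.08), and the upstream kinase gene mkk1 (0.56, SE 0.09) and tmk3 (0.22, SE 0.07, 0.15 and not called without dark replicate 1) were higher.

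Central carbon metabolism moved in both directions. Of 14 listed genes 10 were tested, and 3 were higher (31.8% of all tested models were), 3 lower (30.6% of all) and 4 not called, with a median log2 fold change of −0.03. Isocitrate lyase and malate synthase are enzymes of the glyoxylate cycle, which lets a cell build sugars from acetate. The isocitrate lyase gene acu3 had 461, 467 and 426 CPM in light and 121, 145 and 175 CPM in darkness (1.62, SE 0.15, edgeR adjusted p = 7.08e-09). The malate synthase gene acu9 had 342, 353 and 326 CPM in light and 96.1, 97.3 and 104 CPM in darkness (1.78, SE 0.09). In each case all light libraries lay above all dark libraries. Citrate synthase, cit1, which serves both this cycle and the citric acid cycle, went the other way, with 249, 273 and 237 CPM in light and 674, 633 and 726 CPM in darkness (−1.42, SE 0.08), and the isocitrate dehydrogenase gene idh2 rose a little (0.47, SE 0.07). The enolase gene eno1 fell (1174 ± 179 CPM in light and 1934 ± 105 CPM in darkness, −0.72, SE 0.13), while gpd1, of the glycolytic enzyme glyceraldehyde-3-phosphate dehydrogenase, did not pass the test (2586 ± 365 CPM in light and 3656 ± 319 CPM in darkness, edgeR adjusted p = 0.109). Outside the list, the formate dehydrogenase gene fdh1 averaged 239 ± 28.8 CPM in light and 97.1 ± 8.97 CPM in darkness (edgeR adjusted p = 0.000186), and the kinase gene snf1 316 ± 41.2 CPM in light and 167 ± 6.36 CPM in darkness (0.92, SE 0.16).

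Of the 7 listed and tested genes for the use of pentoses and galactose 1 was higher, 3 were lower and 3 were not called, where 31.8% of all tested models were higher and 30.6% lower. The xylose reductase gene xyl1 had 170.4, 137 and 203 CPM in light and 990.0, 1204 and 1248 CPM in darkness (−2.75, SE 0.50, edgeR adjusted p = 7.95e-05). In contrast lxr1, first described as an L-xylulose reductase gene, had 233, 318 and 207 CPM in light and 23.8, 16.9 and 20.1 CPM in darkness (3.64, SE 0.27). Of the galactose pathway, the galactokinase gene gal1 (122 ± 3.89 CPM in light and 246 ± 19.0 CPM in darkness, −1.01) and gal10 (−0.57) were lower, while gal7 was not called (25.9 ± 0.618 CPM in light and 24.1 ± 1.42 CPM in darkness).

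The list for chitin degradation holds genes of the chitinase family, whose enzymes cut chitin, with nag1 and nag2. All 20 listed genes were linked and 14 were tested. In light 4 were higher, 6 lower and 4 not called, with a median of 0.03, where 31.8% of all tested models were higher and 30.6% lower. The strongest rise was that of chi18-9, at 246, 189.7 and 343 CPM in light and 22.7, 24.3 and 23.7 CPM in darkness (3.46, SE 0.21, edgeR adjusted p = 1.47e-11). Chi18-rel1 fell, with 12.0, 14.9 and 9.92 CPM in light and 57.4, 37.2 and 45.9 CPM in darkness (−1.93, SE 0.20). The falls of 3 others rested in part on dark replicate 1, which held the highest value of each. Chi18-12 had 0.405, 0.856 and 0.301 CPM in light and 16.7, 6.67 and 4.21 CPM in darkness (−4.15, −3.39 without that library). Chi18-15 had 0.0506, 0.0611 and 0.0601 CPM in light and 4.14, 0.561 and 0.759 CPM in darkness; its 3 counts in light make it 33.0-fold lower (exact 95% counting interval 10.9 to 163), and without that library the fitted log2 fold change was −3.37. For chi18-5 the call was lost without it (−0.74, and −0.24 with edgeR adjusted p = 0.273), as it was with only the groups compared.

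The housekeeping lists shifted less than the cellulose and hemicellulose lists. Their median log2 fold changes were −0.43 (proteasome), −0.42 (vesicle traffic), −0.65 (histones) and −0.04 (ribosomal proteins). Their counts stand beside 30.6% lower, 31.8% higher and 62.4% called in either direction over all tested models. All 4 tested proteasome genes were lower in light, among them the alpha subunit gene psa7 with 82.1, 72.8 and 76.0 CPM in light and 124, 135 and 129 CPM in darkness (−0.75, SE 0.09). All 4 tested genes of vesicle traffic were lower as well, led by sso1, of the plasma membrane fusion machinery of secretion, with 56.1, 59.2 and 52.5 CPM in light and 125, 133 and 141 CPM in darkness (−1.25, SE 0.08). Sar1, which acts in vesicle budding, fell least (−0.24, SE 0.06). The 3 tested histone genes were lower, hh2a with 732 ± 53.8 CPM in light and 1278 ± 117 CPM in darkness (−0.80, SE 0.15). Of 31 tested ribosomal protein genes none was higher, 4 were lower and 27 were not called, and their median of −0.04 was near that of all tested models. Outside the housekeeping lists, 3 hydrophobin genes were listed, of which only hfb3 was linked and tested. This gene, of the small surface proteins that coat aerial hyphae and spores, had 1534, 1443 and 1240.3 CPM in light and 3468, 3991 and 4109.9 CPM in darkness (−1.46, SE 0.28, edgeR adjusted p = 0.000146).

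The greatest rise by fitted log2 fold change belonged to TrE0391W, a short model of coding length 180 without a linked locus tag. It had 67401, 50571 and 71537 CPM in light and 9.14, 4.05 and 3.24 CPM in darkness (13.48, SE 1.38, edgeR adjusted p = 3.85e-08), and took 5.99 ± 0.952% of all counts in light (SD, n = 3). No other model took more than 1.03% of the light counts. Without dark replicate 1 its log2 fold change was 14.07. The rises that follow were ranked only among called models with at least 10 CPM in every light library. The next were TrD1022C, with 328, 281 and 349.7 CPM in light and 0.0609, 0 and 0.0690 CPM in darkness, and TrF1202W, with 36.3, 22.6 and 49.6 CPM in light and no count in darkness. TrD1022C was 7523-fold higher (exact 95% counting interval 2082 to 62124) and TrF1202W at least 568-fold higher. TrF1202W stands directly beside chi18-9 (TrF1201C) in the order of the models. TrC0697C averaged 259 ± 73.1 CPM in light and 0.252 ± 0.118 CPM in darkness, and TrB1951W 334 ± 114 CPM in light and 0.581 ± 0.164 CPM in darkness. TrB1183C averaged 404 ± 108 CPM in light and 0.654 ± 0.862 CPM in darkness (9.20, or 11.21 without dark replicate 1), and TrC0864C 42.8 ± 12.4 CPM in light and 0.0920 ± 0.159 CPM in darkness (8.85, or 12.55 without dark replicate 3). None of the 10 models with the greatest fitted rises under this rule has a gene symbol, but only 174 of the 10879 models have one. The 10 deepest fitted falls were ranked likewise, among called models with at least 10 CPM in every dark library. Of these, 6 are the enzyme and binding protein genes cel61a, axe1, cip1, cel3a, cel5a and man5a, and a seventh is TrG1206C.

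The other deep falls were those of TrG0128W, TrB0848C and TrA0865C. TrG0128W had 0, 0.0611 and 0 CPM in light and 92.4, 162 and 149 CPM in darkness, which is 7045-fold lower on 1 light count (exact 95% counting interval 1264 to 278290). TrB0848C had no count in light and 26.9, 26.8 and 24.4 CPM in darkness, at least 459-fold lower. TrA0865C had 2 counts in light, both in replicate 1, and 119, 157 and 159 CPM in darkness, which makes it 3810-fold lower (exact 95% counting interval 1054 to 31467).

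The models with the most counts also changed places. Beside cel7a, which took 1.40 ± 0.0824% of the dark counts, TrC1166C held 16.2, 16.3 and 17.9 CPM in light and 12141, 13806 and 14594 CPM in darkness (−9.65, SE 0.50). Per kilobase of coding length, mean levels in darkness were 8296 CPM for TrC1166C and 10073 CPM for cel7a, and in light 10.3 CPM for TrC1166C and 6.02 CPM for cel7a. TrC1130C, of coding length 261, was lower (8235 ± 1315 CPM in light and 23626 ± 3719.6 CPM in darkness, −1.52), and TrB1256C, of coding length 29481, was higher (7102 ± 939 CPM in light and 1862 ± 182 CPM in darkness, 1.93). The elongation factor gene tef1a, among the most abundant in both lightings, did not pass the test (10819 ± 693 CPM in light and 12556 ± 611 CPM in darkness, −0.21, edgeR adjusted p = 0.0552). With DESeq2 size factors it was called lower (−0.25).

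Neighbouring genes fell together in places, but did not rise together to the same degree. Runs of at least 5 tested neighbours, each called and at least 4-fold changed, numbered 0 for higher and 10 for lower, with 54 models in all, where 4.09% of all tested models were higher and 7.95% lower at that fold. At a minimum of 2-fold there were 2 runs of higher and 21 of lower models. A run that holds 3 of the deepest falls lies on contig unitig_4_consensus at 2202950 to 2222382 (coordinates as in the count table), from TrE0664C to TrE0671C, and includes axe1, cip1 and cel61a. Its 6 models summed to 0.927 ± 0.559 CPM in light and 5317 ± 404 CPM in darkness (SD, n = 3 each). At the 2-fold minimum this run extended to 11 tested models over 43.9 kb, the longest found, with the 5 models before it. TrE0662C, which no list holds, averaged 3.77 ± 0.613 CPM in light and 366 ± 91.5 CPM in darkness. The 5 models hold 4 of the 5 genes listed for the cluster that makes the yellow pigment sorbicillin. All 5 listed sorbicillin genes were lower. TrE0659C had 16.04, 15.8 and 15.4 CPM in light and 57.3, 55.6 and 39.8 CPM in darkness (−1.69, SE 0.13), and TrE0660W had 4.66, 6.42 and 6.31 CPM in light and 47.0, 45.0 and 23.3 CPM in darkness (−2.74, SE 0.27). TrE0661W had no count in light and 2.50, 1.37 and 0.690 CPM in darkness, at least 27.3-fold lower. TrE0663W had 36.8, 34.0 and 40.1 CPM in light and 139, 112 and 139.5 CPM in darkness (−1.81, SE 0.10). The log2 fold change of the list's median member was −2.74, also with the 2 members without light counts at their bound. The other 3 runs of 6 models at the 4-fold minimum were TrB0008C to TrB0016W, with 12.9 ± 0.307 CPM in light and 254 ± 17.4 CPM in darkness in sum, TrD0071C to TrD0076C, with 0.643 ± 0.0279 CPM in light and 8.64 ± 2.48 CPM in darkness, and TrD1309W to TrD1315W, with 17.6 ± 10.1 CPM in light and 600 ± 59.3 CPM in darkness. Of the last, TrD1310W had 5.26, 21.1 and 3.25 CPM in light and 512, 485 and 412 CPM in darkness (−5.58, or −6.77 without light replicate 2).

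**Figure D3:**
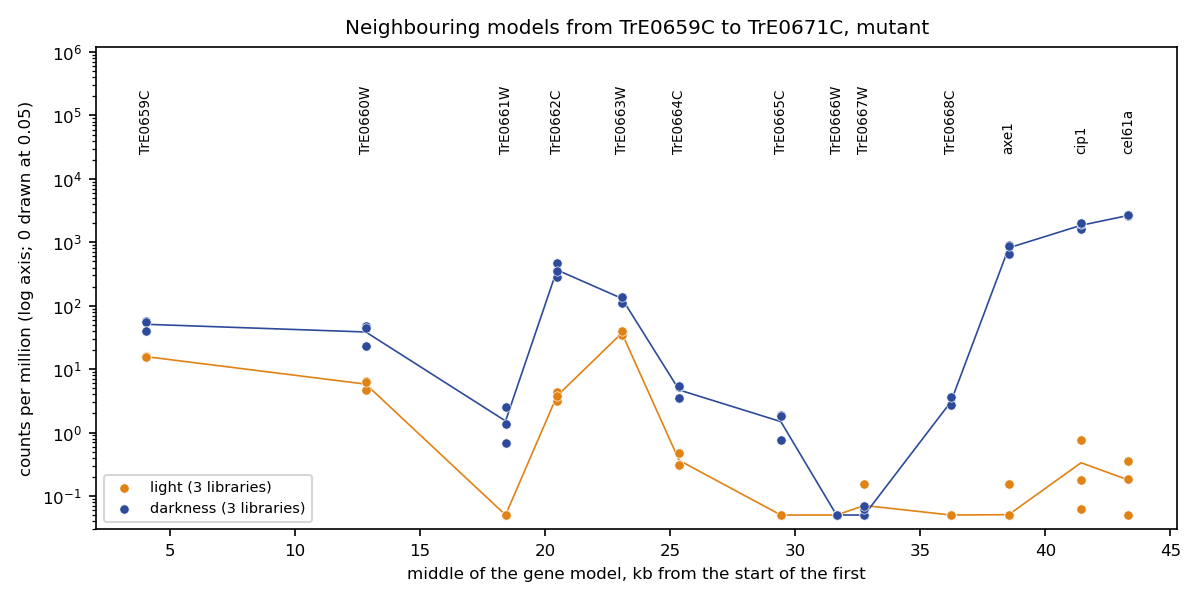
CPM of the neighbouring models TrE0659C to TrE0671C in the mutant, on a log axis, against the distance of each model's middle from the start of the first model in kb (orange, light; blue, darkness; 3 libraries each; lines join group means). All 11 tested models lie lower in light, the 3 at the right (axe1, cip1 and cel61a) by the most, and TrE0666W and TrE0667W were not tested.

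Whether the response to light differs from that of the undeleted strain was tested as the difference of the light effects, mutant minus QM6a, in a single fit. The mutant also had no count for TrC0447C, so the deleted gene and this second model cannot be told apart in the strain comparison. The light effect was called for 62.4% of models in the mutant and 64.8% in QM6a, where 32.5% were higher and 32.2% lower. Of the models higher in light, 2441 were called in both strains (82.4% of the mutant's and 80.6% of QM6a's), and of those lower 2492 (87.6% and 83.1%). At an adjusted p of 0.05 the light effects of the mutant and QM6a differed in 5 of the 9308 tested models. These were 0.0537% of those tested, 0.043% with a positive and 0.0107% with a negative difference. At an unadjusted p under 0.05 the light effects differed in 1238 of the 9308, far more than the adjusted test called. DESeq2's Wald test called 80 at an adjusted p of 0.05. No tested member of the cellulose or hemicellulose lists was among the 5. The median log2 fold changes of these lists were −9.43 and −5.56 in the mutant and −8.42 and −3.73 in QM6a, and the difference of the medians was not tested. Light replicate 3 of QM6a was far above its other light replicates for cel61b (0.0569, 0.215 and 5.80 CPM) and TrB1918C (0.967, 0.915 and 8.84 CPM). It was not so for cel1b (36.6, 35.7 and 30.05 CPM). Single libraries thus weigh on the folds near the floor. For cel7a, 13.2, 7.70 and 7.03 CPM in light and 14024, 15899 and 16767 CPM in darkness in the mutant stood beside 6.83, 6.78 and 26.4 CPM in light and 13423, 14774 and 12656 CPM in darkness in QM6a. The count moved with single libraries, to 46 without light replicate 2 of the mutant, 29 without its dark replicate 1 and 21 without dark replicate 2 of QM6a, and to 2 without light replicate 1 of the mutant or light replicate 1 of QM6a and 3 without light replicate 2 of QM6a. A p that misses the threshold does not show that the strains responded alike.

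Among the 5, TrE0663W of the sorbicillin run had 36.8, 34.0 and 40.1 CPM in light and 139, 112 and 139.5 CPM in darkness in the mutant, against 33.0, 37.0 and 28.5 CPM in light and 238, 221 and 192 CPM in darkness in QM6a. Its fall was thus shallower in the mutant, by 0.91 on the log2 scale (SE 0.14, edgeR adjusted p = 0.00943), and the mutant lay below QM6a in every dark library while the light libraries of the strains overlapped. With only these 4 groups in the fit the difference was 0.89 and was not called. TrE0011C (TRIREDRAFT_71005) and TrE0013C (TRIREDRAFT_71010), which lie near each other at the start of contig unitig_4_consensus, also fell less in the mutant. TrE0011C had 2.33, 1.89 and 2.64 CPM in light and 15.8, 20.02 and 24.5 CPM in darkness in the mutant, against 0.455, 0.538 and 0.424 CPM in light and 25.8, 20.9 and 25.6 CPM in darkness in QM6a (difference 2.51, SE 0.36, edgeR adjusted p = 0.0088). TrE0013C had 1.21, 1.04 and 0.781 CPM in light and 5.54, 5.36 and 6.90 CPM in darkness in the mutant, against 0.171, 0.108 and 0.141 CPM in light and 8.07, 6.53 and 7.49 CPM in darkness in QM6a (difference 3.12, SE 0.51, edgeR adjusted p = 0.012). For both, the strains overlapped in darkness and the mutant lay above QM6a in light, where the levels were low. The QM6a light values of TrE0013C lay at or under the floor of 3 counts, which is 0.161 to 0.212 CPM in those libraries. The size of its difference is therefore uncertain. TrG0241W rose more in the mutant, with 3.998, 4.52 and 3.73 CPM in light and 0.853, 0.998 and 0.966 CPM in darkness, against 3.36, 3.71 and 4.88 CPM in light and 2.78, 2.25 and 2.21 CPM in darkness in QM6a (difference 1.40, edgeR adjusted p = 0.0345). TrG0916W had 201, 233 and 200.03 CPM in light and 199.7, 202 and 207 CPM in darkness in the mutant, where it was not called, and 282, 257 and 271 CPM in light and 155, 164 and 160.4 CPM in darkness in QM6a (difference −0.70, edgeR adjusted p = 0.0106). The calls of TrE0013C and TrG0916W were lost without light replicate 1 of either strain, that of TrE0013C also without light replicate 2 or 3 of QM6a, and that of TrG0241W without any 1 of 7 of the 12 libraries, with only the 4 groups in the fit (edgeR adjusted p = 0.158) and with a replicate block (0.0823). TrE0013C and TrG0241W were under 10 CPM in every group and were singled out after their values were seen.

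**Figure D4:**
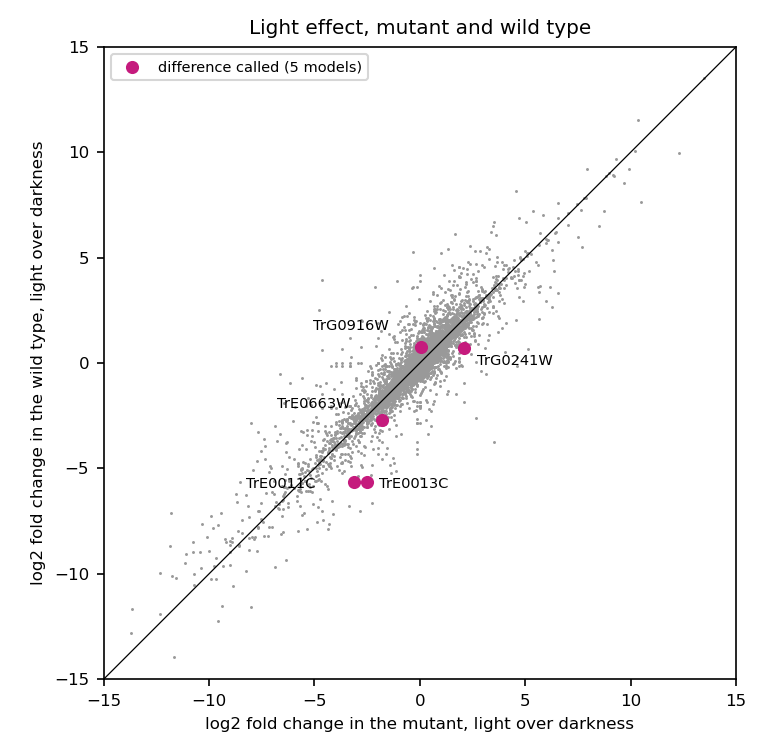
Log2 fold change in light over darkness of each tested model in the mutant (horizontal axis) and in QM6a (vertical axis), with a line where both are equal. The 5 models whose difference was called are marked in magenta, with TrE0011C and TrE0013C falling less in the mutant (−3.13 and −2.53) than in QM6a (−5.64 and −5.65).

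The light effect of the mutant was different with 5 mM L-methionine in the medium. The difference of the light effects, without minus with methionine, was called for 4251 models (45.7% of those tested, 23.3% positive and 22.4% negative). With methionine 1766 models were higher in light (19.0%) and 2019 were lower (21.7%). Of the models higher in light without methionine 1030 were also higher with it (34.8% of the first set and 58.3% of the second) and 215 were lower, and of those lower 1143 were also lower (40.2% and 56.6%) and 274 were higher. For 19 of 20 cellulose members and 11 of 13 hemicellulose members the light effect differed between the media, with median log2 fold changes of −9.43 and −5.56 without methionine and 0.18 and 1.01 with it. The levels show what moved. For cel7a the values were 13.2, 7.70 and 7.03 CPM in light and 14024, 15899 and 16767 CPM in darkness without methionine, against 13.6, 5.14 and 34.6 CPM in light and 8.09, 3.61 and 3.89 CPM in darkness with it. The high level was thus found in darkness without methionine alone among these 4 groups. For xyr1, 229, 225 and 229 CPM in light and 543, 674 and 639.5 CPM in darkness without methionine stood against 275, 274 and 291 CPM in light and 189, 163 and 169 CPM in darkness with it (difference of log2 fold changes −2.13, SE 0.10, edgeR adjusted p = 2.46e-12).

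Across all lists, 16 of 133 tested members (12.0%) were called in opposite directions in the 2 media with a called difference, as were 5.25% of all tested models. The lists were chosen with earlier results of these data known, and the 2 shares were not compared by a test. Of the 16, 12 were lower in light without methionine and higher in light with it. TrC1552C had 2369, 1009.7 and 26548 CPM in light and 244, 235 and 408 CPM in darkness with methionine, a log2 fold change of 5.08 against −5.56 without. TrE0434C had 311, 133 and 2502 CPM in light and 31.5, 23.5 and 37.8 CPM in darkness with methionine (4.99 against −5.001), and TrB1918C had 54.7, 27.2 and 1467 CPM in light and 8.26, 8.07 and 13.1 CPM in darkness (5.71 against −9.44). In all 3 the light libraries with methionine were far from each other, with replicate 3 highest by far. Without that library the log2 fold changes with methionine were 2.51, 2.84 and 2.06, still called higher. The calls with methionine were lost without it for cel7a (1.77, then 0.87), TrG0019C (1.82, then 0.77), TrG0018C (3.07, then 1.27), axe1 (2.07, then 1.03), xyl1 (1.76, then 0.53) and mkk1 (−0.29, then −0.20), which left 10 of the 16. Leaving out any 1 of the other 5 libraries with methionine left 13 to 16. Acu9 went the other way, with 1758, 2070.1 and 1774 CPM in light and 2461, 2514 and 2362 CPM in darkness with methionine (−0.39 against 1.78 without), while acu3 did not pass the test with methionine (−0.23, edgeR adjusted p = 0.211). For mata1, light gave 5.26 without and 4.69 with methionine, and the difference did not pass the test (0.58, SE 0.30, edgeR adjusted p = 0.13). For phr1 it did not pass either (2.44 without and 2.68 with methionine, difference −0.24, SE 0.15, edgeR adjusted p = 0.201).

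**Figure D5:**
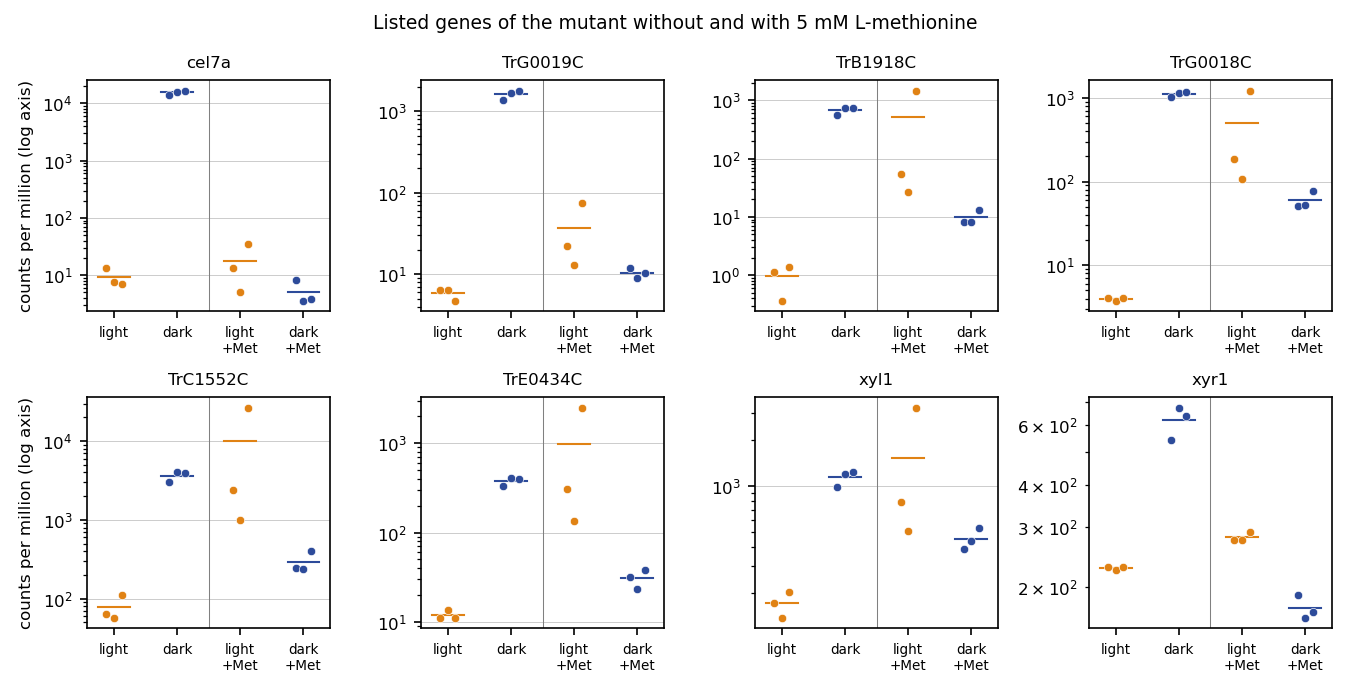
CPM of 8 listed genes of the mutant, on log axes, with 1 point per library and a line at the mean (orange, light; blue, darkness), without methionine left of the grey line and with 5 mM L-methionine right of it. Without methionine the dark points lie above the light points in all 8 panels; with it the light means lie above the dark means, with light replicate 3 highest by far in the 5 panels of TrB1918C, TrG0018C, TrC1552C, TrE0434C and xyl1.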

How the data were processed

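Stranded, rRNA-depleted RNA libraries of mycelium were sequenced. The authors deposited raw counts per gene model, aligned with HISAT2 2.2.1 per the submitters' processing notes and counted with featureCounts 2.0.1 in paired, reverse-stranded mode per the file headers. No label or header names the genome build. All 24 libraries entered a single edgeR 4.0.16 model (R 4.3.3) with 1 term for each of 8 groups, TMM scaling, filterByExpr at a minimum count of 10, the quasi-likelihood test and Benjamini-Hochberg adjustment over 9308 models with a threshold of 0.05. Standard errors are the log2 fold change divided by the square root of F. Depths of 16533052 to 20887411 counts put the floor of 3 counts at 0.152 to 0.207 CPM, and counting intervals and floors cover counting error only. Coding lengths are the table's lengths, 94.69% of them multiples of 3. Locus tags and symbols come from the RefSeq table of QM6a (v2.0). By matching spans 4010 models were linked, and 3300 more by position between matching neighbours, a step chosen after seeing the data. Of 4010 span links hidden and sought by position, 3712 were found, 3711 with the same tag. Of 173 list entries 140 were linked and 133 tested. The members and lists were chosen with earlier results of these data known. Named were the listed genes, the 10 models with the largest rises and falls, the most abundant models, the runs and the models whose light effect differed between strains. The largest rises and falls were ranked among called models with at least 10 CPM in every library of the higher group. Alternatives were DESeq2 1.42.0, its size factors, no filter, only the groups compared, replicate blocks and leaving out each library. Scripts were tested on simulated data.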

Additional observations from a re-analysis of the deposited data

Results flagged for a closer look

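The effect of light in the mutant differed from that in QM6a, by a test of the difference itself, in 5 models (edgeR adjusted p under the threshold of 0.05; differences on the log2 scale, mutant minus QM6a). It was 2.51 for TrE0011C (−3.13 in the mutant and −5.64 in QM6a) and 3.12 for TrE0013C (−2.53 in the mutant and −5.65 in QM6a), 2 nearby models of low level. It was 1.40 for TrG0241W (2.11 in the mutant and 0.71 in QM6a), 0.91 for TrE0663W (−1.81 in the mutant and −2.72 in QM6a) and −0.70 for TrG0916W (0.06 in the mutant and 0.76 in QM6a). Each of the calls of TrE0013C, TrG0241W and TrG0916W was lost when 1 of several libraries was left out, and those of TrE0663W and TrG0241W when only the 4 groups compared entered the fit. With a replicate block the call of TrG0241W was lost as well. The light values of TrE0013C in QM6a lay at or under the floor of 3 counts (0.161 to 0.212 CPM in those libraries). The sizes of its fall in QM6a and of its difference are therefore uncertain. Since TrC0447C also had no count in the mutant, the deleted gene and this model cannot be told apart in these differences.

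In 16 listed genes the effect of light in the mutant was called in opposite directions without and with 5 mM L-methionine, and the difference passed the same test. The differences, without minus with methionine on the log2 scale, were −12.48 for cel7a, −4.88 for cel1b, −3.93 for cel3c, 1.03 for cel5b and −9.93 for TrG0019C among the cellulose genes. Among the hemicellulose genes they were −15.15 for TrB1918C, −11.20 for TrG0018C, −10.63 for TrC1552C, −15.71 for axe1, −9.99 for TrE0434C and −1.55 for TrD0438C. Outside these lists they were −2.13 for the activator gene xyr1, 1.60 for the chitinase gene chi18-13, −4.51 for the xylose reductase gene xyl1, 2.17 for the malate synthase gene acu9 and 0.86 for the kinase gene mkk1. Without light replicate 3 with methionine, 10 of the 16 were still called in opposite directions, and the difference was −11.57 for cel7a, −8.89 for TrG0019C, −11.50 for TrB1918C, −9.41 for TrG0018C, −8.08 for TrC1552C, −14.67 for axe1, −7.85 for TrE0434C and −3.29 for xyl1. Without light replicate 1 of the medium lacking methionine it was −18.85 for axe1. Leaving out light replicate 1 or any dark library with methionine left 13 or 14 of the 16. The call of axe1 with methionine was kept only without light replicate 2. That of cel7a was also lost without dark replicate 2 or 3, and that of mkk1 without dark replicate 2. Without light replicate 1 those of cel1b and cel3c were lost, the latter also without dark replicate 1. The call of cel5b in the medium lacking methionine was lost without light replicate 2.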

How the results depend on the processing

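The counts of models higher and lower in light in the mutant stayed within 1.5 times of 2962 and 2844 under all alternatives, at 2792 and 2992 with DESeq2 size factors, 2797 and 3030 with DESeq2, 2948 and 2895 without a filter, 2658 and 2687 with only the groups compared, and 2692 to 2852 and 2636 to 2809 with 1 library left out. Members lower in light numbered 19 in the cellulose list under every refit and 11 or 12 in the hemicellulose list. With span links only, 4 cellulose and 4 hemicellulose members were lower, since fewer members had a link. The count of models with a different light effect in the mutant and QM6a was 5, and 80 with DESeq2 and between 2 and 46 with 1 library left out, and the cause was not tested. Runs at a 2-fold minimum numbered 2 for higher and 21 for lower models. Among named models 31 values lost and 6 gained a call, and 4 that were not called changed sign: TrB0767W, which ran between −0.15 and 0.11 with 1 library left out, rgs1 (TrE0578W), between −0.0012 and 0.24, and TrG0916W, between −0.016 and 0.097. In TrB0767W this was without light replicate 1 or dark replicate 3, in rgs1 without dark replicate 2 and in TrG0916W without light replicate 2. The gpd1 fall was called with only the groups compared (−0.51). A replicate block gave 2922 higher and 2816 lower models, 994 and 1325 at 2-fold, 4 differences between strains (TrG0241W was lost), 4135 between media, and 19 and 11 members lower in the lists. Same-numbered light and dark libraries of the mutant did not deviate together (r = −0.054, −0.133 and 0.0085 across genes, which are not independent replicates). With 3 libraries per group this cannot show whether the numbers pair cultures. Between light libraries of the mutant and QM6a r ran from −0.425 to 0.509, and the cause was not tested. Links by protein length were not run. Light values of a few counts set the folds of the deepest falls, and in these the depth limits the size, not the direction.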
